A study of Homo sapiens with 12 samples.

Results

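YAP1, WWTR1, TEAD1, TEAD4 and 6 genes read as their targets or partners were followed in BON-1, an established human pancreatic neuroendocrine tumour cell line. The 10 genes, taken by symbol (YAP1, WWTR1, TEAD1, TEAD4, CTGF, CYR61, ANKRD1, AMOTL2, LATS2 and AJUBA), were all found among the 54261 genes of the deposited table. PolyA RNA came from 4 groups of 3 libraries each: BON-1 cells cultured alone, and BON-1 cells sorted by flow cytometry out of co-cultures with CAFs, which commonly stands for cancer-associated fibroblasts. The co-cultures are labelled 10:2, 10:4 and 10:6, read here as BON-1 cells to CAFs. No genotype, agent, culture time or source of the CAFs is given in the labels. The extraction note, the same for every library, speaks of sorting from co-culture, so whether the cells grown alone were sorted is unclear. The labels also do not say how pure the sort was, or whether the libraries of a group came from separate cultures. P-values below therefore set a difference against a spread between libraries that may be technical.

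YAP (from YAP1) and TAZ (from WWTR1) are transcriptional coactivators that do not bind DNA themselves. They act mainly through TEAD1 to TEAD4, the DNA-binding factors of the pathway. The Hippo kinases MST1 and MST2 (STK4 and STK3) act through LATS1 and LATS2, which phosphorylate YAP and TAZ and hold them out of the nucleus. Matrix stiffness, cell contact and cell shape are known inputs. CTGF and CYR61, secreted matricellular proteins now named CCN2 and CCN1, and ANKRD1, a nuclear ankyrin repeat protein, are the targets most used as readouts. AMOTL2 and LATS2 are targets that feed back on YAP, and AJUBA is a LIM protein that restrains LATS kinases. YAP1 is known to be low or silent in many neuroendocrine tumours. RNA levels do not show where YAP and TAZ proteins are in the cell.

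Promoter sequence is shown for the CTGF and ANKRD1 genes because these are the standard readouts of TEAD binding and because their RNA levels in BON-1 lay far apart. GGAATG, the core of the TEAD binding motif, and its reverse complement CATTCC were searched in windows from 250 bases before to 50 bases after each start site listed in RefSeq (GRCh38.p14). The windows matched 7 of the 10 genes. No window was at hand for CYR61, TEAD1 or TEAD4, so these were not searched. Below, the 250 bases before the start site are printed 5′ to 3′ on the strand of the gene, with GGAATG in capitals. The CTGF stretch is chr6:131951373-131951622, minus strand, and the ANKRD1 stretch is chr10:90921088-90921337, minus strand.
CTGF: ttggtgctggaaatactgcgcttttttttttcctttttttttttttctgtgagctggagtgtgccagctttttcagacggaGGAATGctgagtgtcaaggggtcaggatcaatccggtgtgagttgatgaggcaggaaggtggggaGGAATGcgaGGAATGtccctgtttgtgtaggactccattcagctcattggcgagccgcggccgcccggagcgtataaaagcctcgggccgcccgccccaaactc
ANKRD1: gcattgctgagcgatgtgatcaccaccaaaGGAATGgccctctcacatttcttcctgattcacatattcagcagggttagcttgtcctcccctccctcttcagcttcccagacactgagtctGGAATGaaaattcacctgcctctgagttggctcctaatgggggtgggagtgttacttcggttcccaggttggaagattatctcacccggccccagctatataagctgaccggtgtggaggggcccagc
In CTGF the hexamer begins 169, 104 and 95 bases before the start site, and in ANKRD1 it begins 220 and 128 bases before it. The YAP1 window held 1 match, 162 bases before the start site. AMOTL2 and AJUBA held 1 each in 1 of their 2 windows, 69 and 59 bases before the start, and the match in LATS2 lay after the start. WWTR1 had none in either window. Of 35116 RefSeq windows of that length, 14.0% held at least 1 match, 1.37% at least 2 and 0.128% at least 3. A match is a description of the letters and shows no binding.

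Levels are FPKM, read counts scaled by gene length and library depth. This scaling does not correct for GC content, so comparisons between genes and between libraries carry the GC trend described below. Libraries held 11703624 to 21882537 reads assigned to genes. By mean over the 12 libraries the order was AJUBA at 24.0 FPKM, CYR61 at 21.8, CTGF at 20.4, TEAD4 at 18.1, WWTR1 at 9.29, AMOTL2 at 6.90, TEAD1 at 5.24, LATS2 at 4.79, YAP1 at 1.02 and ANKRD1 at 0.326. The ranges over libraries of AJUBA, CYR61, CTGF and TEAD4 overlapped from each neighbour to the next, as did those of WWTR1, AMOTL2, TEAD1 and LATS2. Gaps without overlap separated TEAD4 from WWTR1, LATS2 from YAP1, and YAP1 from ANKRD1. CTGF and CYR61 were thus near 20 FPKM already in the cells grown alone, while ANKRD1 was at 4 to 17 reads in any library. Markers of the labelled cell type were present: all 10 neuroendocrine genes of the list had group means of at least 1 FPKM, with sums of 2743 to 3168 FPKM, and the 6 epithelial genes summed to 4861 to 5245 FPKM. Of the 6 leukocyte markers, PTPRC, CD3E, CD14 and CD79A had group means under 1 FPKM in every group, while CD68 had 6.13 to 7.37 and LYZ 1.81 to 2.84. Of the 5 endothelial markers, PECAM1, TEK and VWF had group means under 1 FPKM, while CDH5 had 26.4 to 28.8 and KDR 10.9 to 13.2, also in BON-1 alone.

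**Figure D1:**
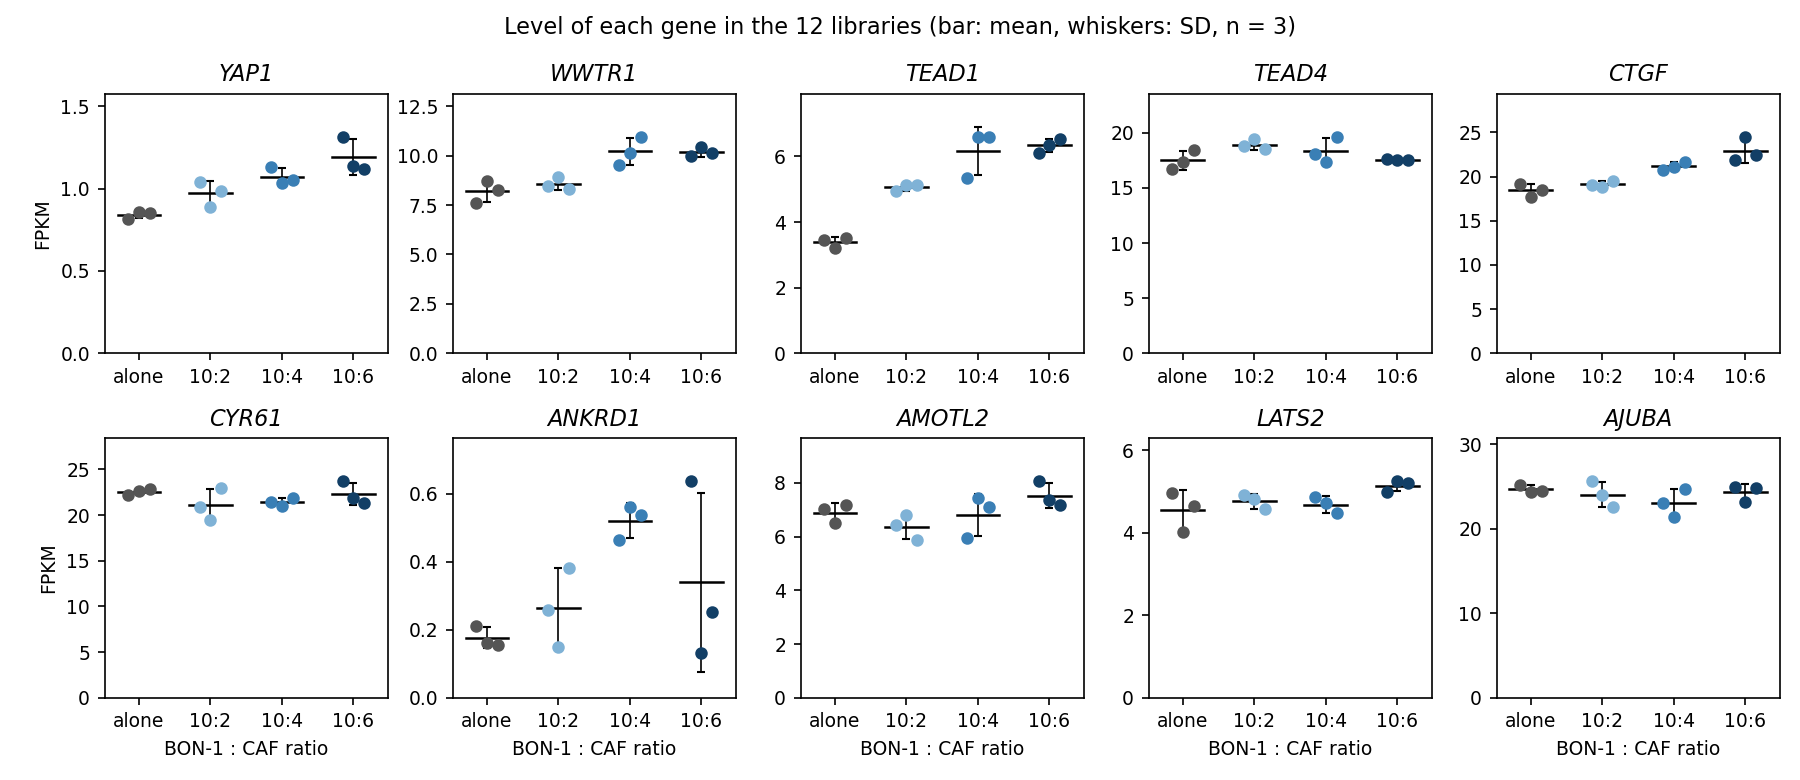
FPKM of each of the 10 genes (y axis, from 0) in the 12 libraries by BON-1 to CAF ratio (x axis); points are libraries, the horizontal bar is the mean and whiskers are the SD of 3 libraries. TEAD1 stepped from 3.40 FPKM alone to 6.34 at 10:6, CTGF and WWTR1 moved less, and CYR61, TEAD4 and AJUBA stayed near their starting level.

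The summed level of fibroblast markers moved with the groups and stands beside every comparison with BON-1 alone. These markers are not particular to CAFs here: in BON-1 alone COL6A1 was at 22.4 FPKM and MMP2 at 14.5, while 9 of the 20 had means under 1. The 20 fibroblast markers of the list summed to 79.2 to 80.3 FPKM in BON-1 alone, 112.8 to 116.8 at 10:2, 191.0 to 197.2 at 10:4 and 267.4 to 269.2 at 10:6. At 10:6, 14 of the 15 markers that passed the filter rose and 0 fell, where 29.7% of all genes tested were called higher and 18.3% lower; 4 of the 15 (COL5A1, COL5A2, PDGFRB and THY1) had passed the filter only through co-cultures. None was at 0 throughout, but DCN, LUM, FAP, FBN1 and POSTN, which are typical of fibroblasts, stayed under 1 FPKM at 10:6. COL1A1, a chain of type I collagen, was 9.22 ± 0.148 FPKM (SD, n = 3) alone and 54.4 ± 0.794 at 10:6. In such bulk samples more CAF RNA and more RNA of a gene per BON-1 cell cannot be told apart, nor can fewer cells of a type and less RNA per cell.

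Of the 10 genes, 9 passed the filter of at least 1 FPKM in at least 3 libraries. ANKRD1 did not, and YAP1 passed only through the co-cultures, since all 3 libraries of BON-1 alone lay under 1. Changes are differences of log2(FPKM + 1), which understate changes of low genes, tested with limma over 13312 genes with Benjamini-Hochberg adjustment at 0.05. Against BON-1 alone, 1 of 9 was called at 10:2, where 27.4% of all genes tested were called, 3 of 9 at 10:4 (45.4% of all genes) and 4 of 9 at 10:6 (48.0%). Every call was toward a higher level; over all genes 19.9%, 27.3% and 29.7% were called higher. With so few members and YAP1 among them, which entered the fit only where it was high, nothing is read from these counts about the genes as a group. The median change of the 9 was 0.06, 0.06 and 0.15, against 0.0034, −0.01 and 0.02 over all genes tested. The 3 comparisons share the libraries of BON-1 alone.

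The coactivators were both higher at 10:6 on FPKM as deposited, and both changes turned sign once trends on GC content and gene length were removed. In every library WWTR1 was far above YAP1 in FPKM. YAP1 had 0.818, 0.859 and 0.852 FPKM in the libraries of BON-1 alone, 1.04, 0.889 and 0.986 at 10:2, 1.13, 1.03 and 1.05 at 10:4, and 1.31, 1.14 and 1.12 at 10:6. All 9 co-culture libraries lay above the 3 libraries grown alone, on 65 to 111 reads per library. The difference of YAP1 at 10:6 was 0.25 ± 0.0804 (SE) on the log2 scale and passed the threshold (limma adjusted p = 0.0241), but since YAP1 entered the fit only through the co-cultures this p supports no rise. With the trends removed it was −0.09 (limma adjusted p = 0.468). Its differences at 10:2 and 10:4 were 0.10 and 0.17 (limma adjusted p = 0.398 and 0.106). On the log2 scale with a pseudocount of 0.1 the value at 10:6 was 0.45, and with limma-voom on recovered reads it was 0.49, with 10:4 also called at 0.35 (limma adjusted p = 0.0489). The same limit from the filter holds for these calls. The call at 10:6 ended without BON-1 alone replicate 1 (limma adjusted p = 0.0666), 2 (0.0547) or 3 (0.0526) or without 10:6 replicate 1 (0.0783).

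WWTR1 had 7.61, 8.71 and 8.28 FPKM in BON-1 alone, 8.47, 8.92 and 8.30 at 10:2, 9.55, 10.1 and 11.0 at 10:4, and 9.96, 10.4 and 10.1 at 10:6. The libraries at 10:2 overlapped those grown alone, and every library at 10:4 and 10:6 lay above both. WWTR1 rose by 0.29 ± 0.0577 (SE) at 10:4 and by 0.28 at 10:6 (limma adjusted p = 0.00192 and 0.00186). With the trends removed both calls ended, at −0.13 and −0.14 (limma adjusted p = 0.123 and 0.107), and WWTR1 was called lower at 10:2, by −0.24 (0.0207). From 10:2 to 10:6 it rose by 0.22 (limma adjusted p = 0.0403). The ratio of WWTR1 to YAP1 in FPKM was 9.72 ± 0.420 (SD, n = 3) alone, 8.86 ± 1.03 at 10:2, 9.54 ± 0.998 at 10:4 and 8.61 ± 0.895 at 10:6. A difference in that ratio among groups was not shown (two-sided exact permutation test, p = 0.389, adjusted p = 0.389 over 4 ratios and sums chosen after the values were seen).

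Of the 9 genes TEAD1 had the largest change at 10:6 on FPKM as deposited. With length and GC trends removed CTGF had the largest, at 0.35 against 0.31 for TEAD1. TEAD4, the TEAD with the highest mean level, was not called on FPKM as deposited and was called higher at all 3 ratios with those trends removed. TEAD1 had 3.44, 3.22 and 3.53 FPKM in BON-1 alone, 4.95, 5.12 and 5.13 at 10:2, 5.33, 6.59 and 6.60 at 10:4, and 6.12, 6.36 and 6.53 at 10:6. Each group of co-culture libraries lay wholly above BON-1 alone, and only 10:4 and 10:6 overlapped each other. TEAD1 rose by 0.46, 0.70 and 0.74 ± 0.0693 (SE) on the log2 scale at 10:2, 10:4 and 10:6 (limma adjusted p = 0.000528, 1.11e-05 and 7.71e-06). From 10:2 to 10:6 it rose by 0.27 (limma adjusted p = 0.0382), and between 10:4 and 10:6 the difference was 0.04, with a 95% interval from −0.115 to 0.189 (limma adjusted p = 0.862). With the trends removed the calls at 10:2 and from 10:2 to 10:6 ended, at 0.15 and 0.16 (limma adjusted p = 0.0863 and 0.115).

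TEAD4 had 16.8, 17.4 and 18.5 FPKM in BON-1 alone, 18.8, 19.4 and 18.5 at 10:2, 18.1, 17.3 and 19.6 at 10:4, and 17.6, 17.5 and 17.5 at 10:6. The libraries at 10:2 lay just above those grown alone, without overlap, and those at 10:4 and 10:6 overlapped them. The changes at 10:2 and 10:4 were 0.10 and 0.06 (limma adjusted p = 0.131 and 0.315), and the change at 10:6 was 0.0035 with a 95% interval from −0.10 to 0.11 (limma adjusted p = 0.96). With the trends removed the values were 0.21, 0.19 and 0.15 (limma adjusted p = 0.0138, 0.011 and 0.0322). TEAD3 lay below TEAD4 without overlap in each of the 4 groups, at 15.9 ± 0.600 FPKM alone and 15.7 ± 0.126 at 10:6, and TEAD2 was at 3.32 ± 0.228 and 4.09 ± 0.638 (SD, n = 3; limma adjusted p = 0.793 and 0.058). TEAD1 made up 8.46% ± 0.296 of the summed FPKM of TEAD1 to TEAD4 in BON-1 alone, 11.7% ± 0.428 at 10:2, 14.4% ± 1.76 at 10:4 and 14.5% ± 0.493 at 10:6 (SD, n = 3). That share differed among the groups (two-sided exact permutation test, p = 0.000779, adjusted p = 0.00312 over the 4 ratios and sums). The share was chosen after the values were seen, which the adjustment does not cover, so this p adds no support to the values. TEAD1 and TEAD4 differ in GC content, 41.3% against 60.4%, and the share was not recomputed with the GC trend described below removed. The sum itself was 40.1 FPKM alone and 43.7 at 10:6 and did not pass (exact permutation p = 0.0569, adjusted p = 0.0759).

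**Figure D2:**
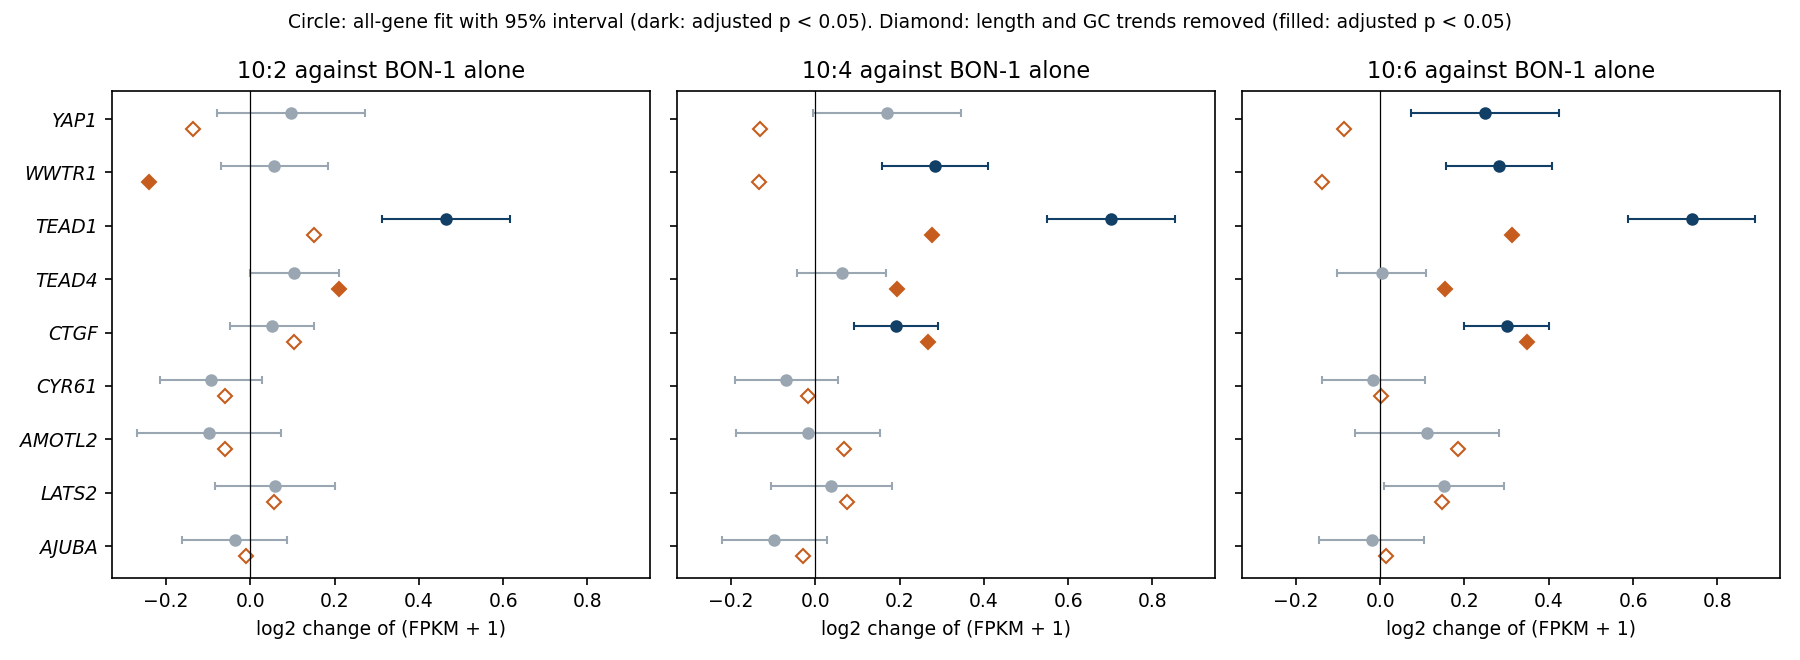
Change of the 9 tested genes (rows) on the log2(FPKM + 1) scale (x axis) at 10:2, 10:4 and 10:6 against BON-1 alone; circles are the fit over all genes with 95% intervals, dark where adjusted p is under 0.05, and diamonds the fit after trends on gene length and GC content were removed, filled where adjusted p is under 0.05. CTGF kept its place under both, from 0.30 to 0.35 at 10:6, TEAD1 went from 0.74 to 0.31, and WWTR1 and YAP1 crossed 0.

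Of the 3 standard readouts, CTGF rose, CYR61 was not called and ANKRD1 was too low for the fit. CTGF had 19.2, 17.6 and 18.5 FPKM in BON-1 alone, 19.0, 18.8 and 19.5 at 10:2, 20.7, 21.1 and 21.7 at 10:4, and 21.9, 24.5 and 22.4 at 10:6. The libraries at 10:2 overlapped those grown alone, all libraries at 10:4 lay above both groups, and all at 10:6 lay above 10:4. CTGF changed by 0.05 at 10:2 (limma adjusted p = 0.43) and rose by 0.19 at 10:4 and by 0.30 ± 0.046 (SE) at 10:6 (limma adjusted p = 0.00532 and 0.000266). It also rose from 10:2 to 10:6, by 0.25 (limma adjusted p = 0.0122). Each library gave CTGF 522 to 904 reads.

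CYR61 had 22.2, 22.6 and 22.9 FPKM in BON-1 alone, 20.8, 19.5 and 23.0 at 10:2, 21.5, 21.0 and 21.9 at 10:4, and 23.7, 21.9 and 21.3 at 10:6. All 3 libraries at 10:4 lay below those grown alone, and those at 10:2 and 10:6 overlapped them. Its changes were −0.09, −0.07 and −0.02, with a 95% interval from −0.14 to 0.11 at 10:6 (limma adjusted p = 0.235, 0.337 and 0.834). The ratio of CTGF to CYR61 was 0.817 ± 0.0437 (SD, n = 3) alone, 0.909 ± 0.0603 at 10:2, 0.987 ± 0.0203 at 10:4 and 1.03 ± 0.0993 at 10:6. It differed among the groups (two-sided exact permutation test, p = 0.0131, adjusted p = 0.0261 over the 4 ratios and sums). This ratio too was chosen after the values were seen, which the adjustment does not cover, so its p adds no support to the values.

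ANKRD1 had 7, 7 and 4 reads in BON-1 alone, 6, 4 and 10 at 10:2, 13, 14 and 14 at 10:4, and 17, 4 and 7 at 10:6. In reads the libraries at 10:4 were the most even. In FPKM they had 0.463 to 0.563 and lay above every library grown alone (0.157 to 0.212) and at 10:2 (0.150 to 0.383). The group at 10:6 held both the highest and the lowest of all 12 in FPKM, at 0.637 and 0.132. Summed reads per group were 18 (95% Poisson interval 10.7 to 28.4), 20 (12.2 to 30.9), 41 (29.4 to 55.6) and 28 (18.6 to 40.5), with depth not equal between groups and intervals that cover counting error only. A difference among groups was not shown (two-sided exact permutation test over 12 libraries, p = 0.105, where the smallest possible is 6.5e-05), but the p was 0.0111 without 10:6 replicate 1.

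In FPKM as deposited, the share of the rise reached at 10:2 was higher for TEAD1 than for CTGF, WWTR1, YAP1 or the summed fibroblast markers. In FPKM, CTGF at 10:2 had reached 0.155 of its difference between 10:6 and BON-1 alone, and at 10:4 it had reached 0.610. The summed fibroblast markers had reached 0.183 and 0.611. TEAD1 had reached 0.567 and 0.945, WWTR1 0.185 and 1.02, and YAP1 0.373 and 0.664. By library, CTGF lay between 0.093 and 0.238 at 10:2 and TEAD1 between 0.527 and 0.588, with no overlap. In BON-1 alone the libraries ran from −0.176 to 0.167 for CTGF and from −0.299 to 0.256 for WWTR1. The mean shares of CTGF and WWTR1 at 10:2 lie within that spread, so their nearness to the markers there cannot be read as a shared course. These shares use the same control libraries, are descriptions and were not tested. They were not recomputed with length and GC trends removed. On the log2 scale with those trends removed, TEAD1 changed by 0.15 at 10:2 and 0.31 at 10:6, and CTGF by 0.10 and 0.35. The rises differ in size: CTGF went up 1.25 times in FPKM, TEAD1 1.87 times and the summed markers 3.36 times. The part of CAF RNA in the rises of CTGF, TEAD1 and WWTR1 was not tested.

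**Figure D3:**
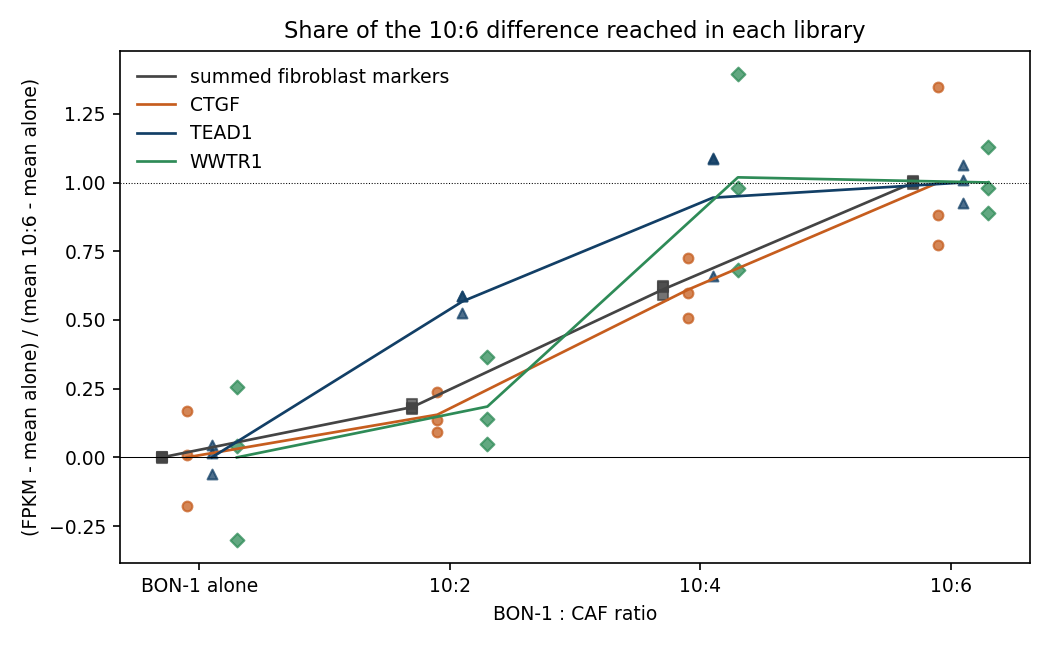
Share of the difference between the 10:6 mean and the BON-1 alone mean reached in each library (y axis; 0 is the mean alone, 1 the mean at 10:6) by ratio (x axis), for the summed fibroblast markers, CTGF, TEAD1 and WWTR1; points are libraries and lines join group means. At 10:2 TEAD1 sits at 0.567, CTGF at 0.155, WWTR1 at 0.185 and the markers at 0.183, all in FPKM with length and GC trends left in.

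The feedback genes and AJUBA were not called by limma on FPKM in any comparison. AMOTL2, an angiomotin family scaffold that binds YAP, had 7.01, 6.49 and 7.16 FPKM in BON-1 alone, 6.43, 6.81 and 5.86 at 10:2, 5.93, 7.41 and 7.09 at 10:4, and 8.05, 7.35 and 7.17 at 10:6. The libraries at 10:6 lay just above those grown alone, and the change was 0.11 with a 95% interval from −0.06 to 0.28 (limma adjusted p = 0.263). From 10:2 to 10:6 it was 0.21 (limma adjusted p = 0.123), which passed with limma-voom (0.24, adjusted p = 0.0469). LATS2 had 4.97, 4.02 and 4.66 FPKM alone and 4.98, 5.25 and 5.21 at 10:6, with 4.48 to 4.91 at 10:2 and 10:4. Its libraries at 10:6 lay above those grown alone, with 4.98 and 4.97 FPKM the nearest pair, and the change of 0.15 did not pass (95% interval 0.01 to 0.29, limma adjusted p = 0.0756). With limma-voom on recovered reads it was 0.20 and passed (limma adjusted p = 0.028). Leaving out replicate 1 of BON-1 alone gave 0.21, which passed too (limma adjusted p = 0.0303). AJUBA had 25.2, 24.3 and 24.5 FPKM alone and 24.9, 23.2 and 24.9 at 10:6, with 21.4 to 25.6 between. The groups overlapped, and the change at 10:6 was −0.02 with a 95% interval from −0.14 to 0.10 (limma adjusted p = 0.801). At 10:6, 6 of the 9 genes had libraries that did not overlap BON-1 alone, as did 58.2% of all genes tested.

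Between ratios, 3 of the 9 genes rose from 10:2 to 10:6 (CTGF, TEAD1 and WWTR1), against 6.97% of all genes tested called and 4.52% called higher. That count was 1 (CTGF) without BON-1 alone replicate 3, 10:2 replicate 1 or 3, or any replicate of 10:6, and 0 without 10:2 replicate 2. With trends on length and GC content removed, as below, it was 1 (3.68% of all genes), and with limma-voom 4, AMOTL2 included (11.6%). From 10:2 to 10:4, limma called 0 of 9 (2.88% of all genes), with 3 at an unadjusted p under 0.05, and limma-voom called TEAD1 and WWTR1 (7.84%). From 10:4 to 10:6 both called 0 (0.331% of all genes with limma and 2.07% with limma-voom), with 1 in limma at an unadjusted p under 0.05. Over all 4 groups the F test of limma called TEAD1, CTGF and WWTR1 (adjusted p = 2.26e-05, 0.000926 and 0.00238), where 44.4% of all genes were called. With the trends removed the F test called TEAD1, CTGF and TEAD4, and WWTR1 ended (adjusted p = 0.0197 for TEAD4 and 0.0503 for WWTR1). With limma-voom it called YAP1 as well (adjusted p = 0.0236), but YAP1 entered that fit only through the co-cultures, so this p supports no difference.

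GC content moved with these changes. The log2 change at 10:6 had a Spearman rho of −0.72 with the GC content of the longest transcript over 12391 genes, which share libraries and are no replicates. WWTR1 (40.9% GC), TEAD1 (41.3%) and YAP1 (43.5%) lay in the lowest 30 percent of genes by GC, CTGF (51.5%), CYR61 (50.3%), LATS2 (51.8%) and AJUBA (52.8%) near the median of 49.8%, and AMOTL2 (56.7%) and TEAD4 (60.4%) above it. With smooth trends on GC content and gene length removed from each library, CTGF rose by 0.27 at 10:4 and 0.35 at 10:6 (limma adjusted p = 0.00169 and 0.000275). TEAD1 rose by 0.28 and 0.31 (limma adjusted p = 0.00258 and 0.00116), and its call at 10:2 ended at 0.15 (0.0863). WWTR1 and YAP1 changed direction at all 3 ratios and TEAD4 was called higher, with the values given above for each, and YAP1 was at −0.14 and −0.13 at 10:2 and 10:4 (limma adjusted p = 0.322 and 0.276). With the trends removed 2 of 9 were called at 10:2, 3 at 10:4 and 3 at 10:6, where 11.7%, 23.2% and 25.5% of all genes were.

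**Figure D4:**
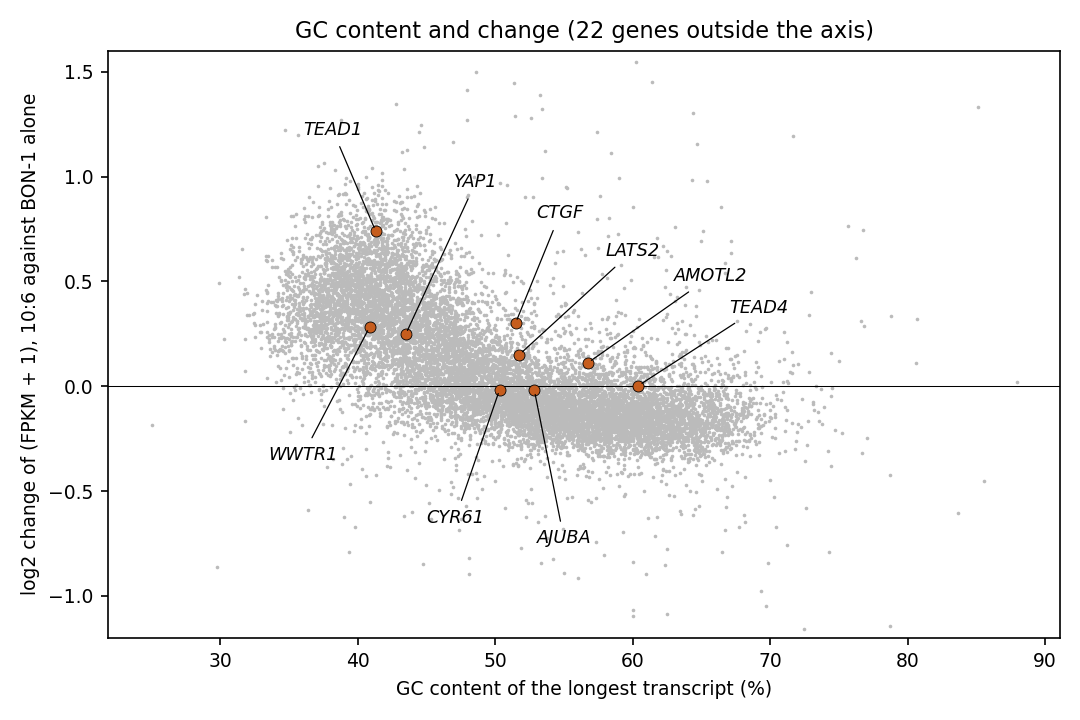
GC content of the longest transcript (x axis, percent) against the log2(FPKM + 1) change at 10:6 against BON-1 alone (y axis) for 12391 genes in grey, with the 9 tested genes in orange; 22 genes lie outside the axis. WWTR1, TEAD1 and YAP1 sit in the low-GC part of the cloud, most of which lies above 0, and the other 6 genes lie between 50.3% and 60.4% GC.

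Genes upstream of YAP, the Hippo kinases and their regulators, had a median change of 0.26 at 10:6 on FPKM as deposited. With length and GC trends removed the median was 0.001. Of 42 listed names, 35 passed the filter, and 19 rose and 5 fell at 10:6, against 29.7% higher and 18.3% lower over all genes. The list was chosen with earlier results of these data known, and its 35 include STK3 and STRN, which passed only through co-cultures. Nothing is therefore read from these counts about the list as a group. Of 7 core genes 6 were tested and 5 were called higher. STK3 is among the 5 and entered the fit only through co-cultures, so its p below supports no rise. STK3 and STK4, the MST kinases, went from 0.672 ± 0.0852 to 1.15 ± 0.247 FPKM and from 5.43 ± 0.0967 to 7.76 ± 0.376 (limma adjusted p = 0.0138 and 0.000134). The kinase LATS1 went from 1.25 ± 0.0598 to 2.19 ± 0.275, and the scaffolds SAV1 from 2.14 ± 0.139 to 3.00 ± 0.128 and MOB1A from 10.7 ± 0.897 to 14.7 ± 0.666 (SD, n = 3; limma adjusted p = 0.000636, 0.00479 and 0.00115). NF2, the membrane scaffold merlin, was 7.92 ± 0.679 and 7.28 ± 0.507 FPKM and was not called (limma adjusted p = 0.248). MOB1B, at 0.442 and 0.740 FPKM, did not pass the filter, and STK3 and STRN passed it only through co-cultures.

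Other Hippo genes named by size of p were STRN3, FRMD6, FAT1, TNIK and MAP4K3. STRN3, a striatin of the phosphatase complex that opposes MST kinases, rose from 3.53 ± 0.447 to 7.43 ± 0.678 FPKM, FRMD6, a membrane scaffold, from 4.50 ± 0.209 to 7.74 ± 0.697, and FAT1, an atypical cadherin, from 3.04 ± 0.144 to 5.26 ± 0.0975 (limma adjusted p = 6.85e-06, 1.05e-05 and 1.43e-05). MAP4K3 and TNIK, kinases of the MAP4K family, rose by 0.53 and 0.60 on the log2 scale (limma adjusted p = 2.4e-06 and 6.93e-05). The 19 that rose had GC contents from 35.2% to 46.6%, and the 5 that fell from 51.2% to 66.5%. After removal of the trends, 6 rose and 3 fell, against 11.5% and 14.0% of all genes, the list had a median of 0.001, and none of the 6 core genes tested was called. STRN3, FAT1, TNIK and FRMD6 stayed called, at 0.49, 0.42, 0.38 and 0.23, and MAP4K3 did not (limma adjusted p = 0.0848).

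TEAD partners and other targets went both ways at 10:6. Of 15 nuclear partners, 10 were tested, 1 rose and 2 fell, with a median of −0.05, where 29.7% of all genes were called higher and 18.3% lower. TP73, a p53 family factor that binds YAP, fell from 11.8 ± 0.161 to 9.32 ± 0.183 FPKM, and FOSL1, an AP-1 subunit, from 19.4 ± 1.93 to 16.2 ± 0.509, while RUNX1 rose from 2.42 ± 0.255 to 2.94 ± 0.184 (limma adjusted p = 0.000129, 0.00584 and 0.0361). With the trends removed TP73 was still lower, by −0.22 (limma adjusted p = 0.00168), and the calls for FOSL1 and RUNX1 ended (0.278 and 0.727). TEAD2, not called before, was then higher by 0.37 (limma adjusted p = 0.0102).

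Of 25 other targets, 19 were tested, 10 rose and 3 fell, with a median of 0.18, beside the same 29.7% higher and 18.3% lower over all genes. TGFBI, a secreted matrix protein that TGF-beta also induces, rose from 48.4 ± 0.755 to 70.4 ± 1.76 FPKM, and MYOF, a membrane repair protein, from 6.13 ± 0.0557 to 9.01 ± 0.195 (limma adjusted p = 2.3e-07 and 8.46e-05). CCDC80, a matrix protein, went from 0.363 ± 0.0323 to 1.51 ± 0.0782 FPKM (SD, n = 3; limma adjusted p = 2.23e-05). CCDC80 is among the 10 but passed the filter only through co-cultures, so this p supports no rise. ASAP1 rose from 7.24 ± 0.419 to 9.41 ± 0.443, and FJX1, a secreted kinase relative, fell from 17.2 ± 0.706 to 13.6 ± 1.25 (SD, n = 3; limma adjusted p = 0.000528 and 0.000986). After removal of the trends, 5 of them were higher and 1 lower, where 11.5% of all genes were called higher and 14.0% lower. TGFBI and MYOF were still higher, by 0.55 and 0.30, FJX1 was still lower, by −0.19, and the call for ASAP1 ended (limma adjusted p = 0.682). CCDC80 was at 0.53, with the same limit from the filter. Fibroblast markers rose in the same comparison, as given above.

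**Figure D5:**
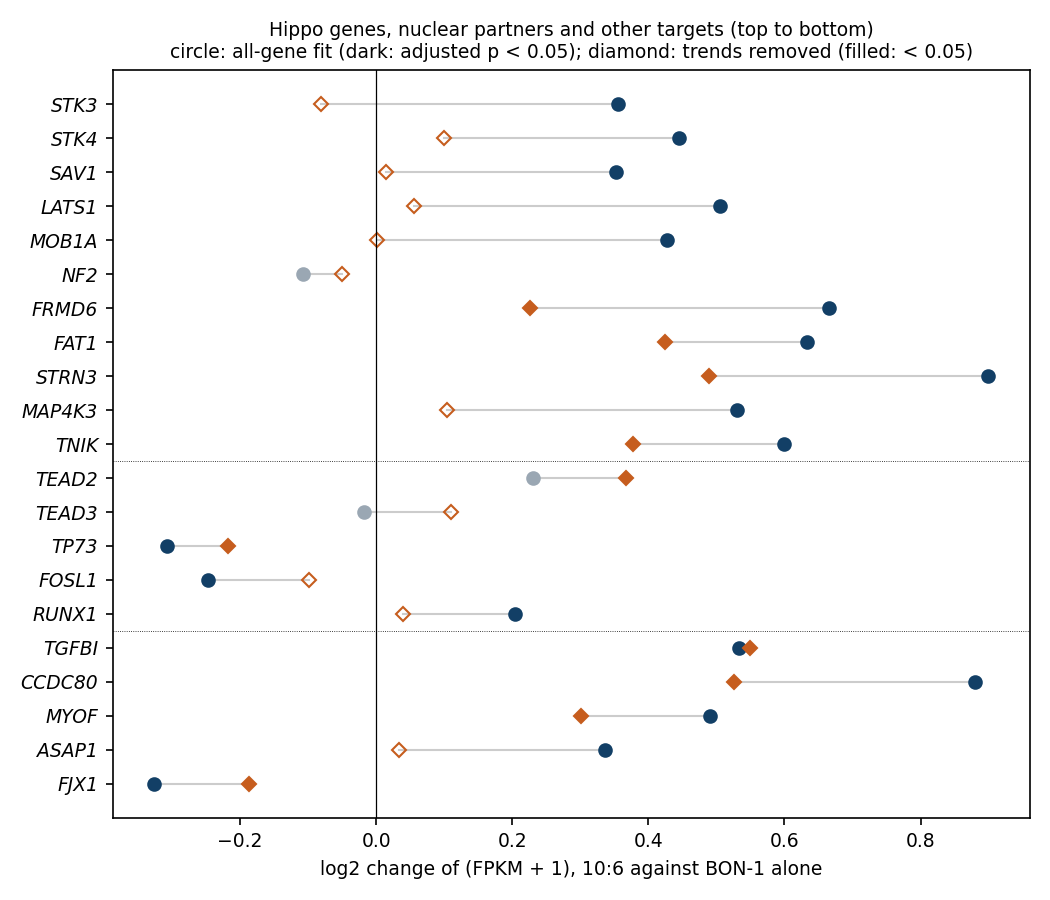
Change at 10:6 against BON-1 alone on the log2(FPKM + 1) scale (x axis) for Hippo genes (top block), nuclear partners (middle) and other targets (bottom); circles are the fit over all genes, dark where adjusted p is under 0.05, and diamonds the fit with length and GC trends removed, filled where adjusted p is under 0.05. The circles of STK4, LATS1, SAV1 and MOB1A lie between 0.35 and 0.51 and their diamonds between 0.0006 and 0.10, while TGFBI stays at 0.53 and 0.55.

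Genes closest to YAP1 and CYR61 in their course over the 12 libraries were named by the root mean square difference of log2(FPKM + 1) values centred on each gene's mean, among 11155 protein-coding genes. For YAP1 these were MINOS1 at 0.0373, PCGF5 at 0.0401 and RPAIN at 0.0414, where the values of YAP1 itself spread by 0.0999 around their mean. This scale compresses low genes, so the likeness is not one of fold change. From BON-1 alone to 10:6 YAP1 rose 1.41 times in FPKM. MINOS1 went from 14.3 to 16.5 FPKM, PCGF5 from 2.27 to 2.70 and RPAIN from 12.6 to 15.4. No chance level was computed for the nearest of so many genes. For CYR61 they were PIGC at 0.0393, SDHC at 0.0410 and COMMD7 at 0.0414, with a spread of 0.0696. Some exons of the members are shared with other genes in GENCODE 29: WWTR1 shares 795 exon bases with its antisense gene WWTR1-AS1, listed at 0.348 to 0.854 FPKM, and YAP1 and CTGF share 628 and 195 with antisense genes. Whether counting used strand is not given in the sources used here, so such reads cannot be told apart. In the GRCh38.p14 annotation YAP1 (Entrez gene 10413) lies on chromosome 11 from 102110447 to 102233424, WWTR1 (25937) on chromosome 3 from 149517235 to 149724788, TEAD1 (7003) on chromosome 11 from 12674421 to 12944737, and CTGF (1490) on chromosome 6 from 131948176 to 131951372. Each value covers a whole gene, and exons were not separated.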

How the data were processed

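The authors deposited 1 table with FPKM for the 12 libraries. The submitters' processing notes name HISAT2, featureCounts and hg38, and their versions, settings and annotation were not stated in the labels. Sample titles carry the code of their column, and 0 columns stayed unmatched.

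Because FPKM keeps depth where whole reads were counted, each library's depth and each gene's length were solved for, and 99.9738% of 267349 nonzero values came out whole within 1e-05 of a read. Values were log2(FPKM + 1) for 13312 genes with at least 1 FPKM in at least 3 libraries. The model, fitted by limma 3.58.1 in R 4.3.3, gave each group its mean and used moderated variances with an intensity trend. Benjamini-Hochberg adjustment ran over all genes. The fit was also run on simulated data that held no GC trend, so that run says nothing on calls that depend on GC content. No pair of replicates looked like 1 library deposited again: chi-square per gene was 1.64 to 4.35 where a gene had 50 reads or more. ANKRD1, ratios and sums were tested by exact permutation over libraries.

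Alternatives changed the pseudocount (0.1), filter, scaling (median-of-ratios, quantile), variance model, libraries in the fit, the replicate number as a block, limma-voom on recovered reads, removal of GC and length trends (natural splines with 5 degrees of freedom, 12391 genes or 93.08% with values, GC content from GENCODE 29), and each library left out. The members and lists were chosen with earlier results of these data known. Every member was named; from the Hippo, partner and other target lists, up to 5 called genes with the smallest p at 10:6, the core kinases and scaffolds, TEAD2 and TEAD3 were named. Permutations ran in Python 3.11.15 with scipy 1.17.1, and plots were drawn by matplotlib 3.10.9.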

Additional observations from a re-analysis of the deposited data

How the results depend on the processing

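Depth limits ANKRD1 (4 to 17 reads) and YAP1 (65 to 111) most, and calls of YAP1 below carry the limit of the filter given above. The number of members called moved by over 1.5 times with length and GC trends removed at 10:2 against BON-1 alone (2, TEAD4 higher and WWTR1 lower, in place of 1) and at 10:6 against 10:2 (1 in place of 3), where it was also 1 with no filter on low values and 1 in a fit of only those groups. For 10:4 against 10:2 limma-voom called 2 in place of 0. Smaller moves were 3 in place of 4 at 10:6 against BON-1 alone with the trends removed (TEAD4 gained, WWTR1 and YAP1 lost), with quantile scaling and with at least 1 FPKM asked of all 12 libraries (YAP1 lost in both), and with limma-voom 4 in place of 3 at 10:4 (YAP1), 5 in place of 4 at 10:6 (LATS2), 4 in place of 3 from 10:2 to 10:6 (AMOTL2) and 4 in place of 3 in the F test (YAP1). At 10:4 with the trends removed the count stayed at 3, with TEAD4 in place of WWTR1. From 10:2 to 10:6 it was 2 with median-of-ratios scaling (WWTR1 lost) and 2 with quantile scaling (TEAD1 lost). Without single libraries the counts ran from 1 to 1, 3 to 3 and 3 to 4 at 10:2, 10:4 and 10:6 against BON-1 alone, from 0 to 2 for 10:4 against 10:2 (2 without 10:4 replicate 1), 0 to 0 for 10:6 against 10:4, and 0 to 3 for 10:6 against 10:2. In the last, 1 was left without BON-1 alone replicate 3, 10:2 replicate 1 or 3, or any replicate of 10:6, and 0 without 10:2 replicate 2. The permutation p of ANKRD1 ran from 0.0111 (without 10:6 replicate 1) to 0.205. 

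Log2 changes against BON-1 alone that turned sign are as follows. With length and GC trends removed, YAP1 was −0.136, −0.131 and −0.0868 and WWTR1 −0.241, −0.134 and −0.137 in the order of the ratios, AMOTL2 was 0.0693 at 10:4, and CYR61 and AJUBA were 0.0019 and 0.0137 at 10:6. With quantile scaling, YAP1 and WWTR1 were −0.022 and −0.0104 at 10:2, LATS2 −0.0554, −0.116 and −0.0206, and TEAD4 and AMOTL2 −0.0306 and −0.0151 at 10:6, where the call for YAP1 also ended (0.0983, limma adjusted p = 0.33). With median-of-ratios scaling TEAD4 was −0.0553 at 10:6. Without single libraries the ranges that crossed 0 were −0.0117 to 0.114 and −0.0322 to 0.093 for LATS2 at 10:2 and 10:4, −0.0812 to 0.0064 and −0.0374 to 0.013 for AJUBA at 10:2 and 10:6, −0.0741 to 0.0662 for AMOTL2 at 10:4, −0.0266 to 0.0394 for TEAD4 and −0.0591 to 0.0135 for CYR61 at 10:6. The causes were not tested.

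With the replicate number as a block, the members called were 1, 3 and 4 against BON-1 alone and 2 from 10:2 to 10:6, where the call for TEAD1 ended. Same-numbered libraries of different groups deviated with correlations from −0.0427 to 0.0458, so no shared effect of the number was seen. Whether libraries of the same number were handled together is not given in the labels, and these correlations cannot settle it.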
